A study of Mus musculus with 4 samples.

Results

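The cells described here are Mpo-positive granulocytic progenitors of mouse bone marrow, taken from the 2 single-cell libraries of the Lin-/CD11b+ sort, which pooled lineage-negative progenitors with CD11b+ myeloid cells. A cell was a member if it held at least 10 UMIs of Mpo, at least 2 of Cebpe and at most 1 of Ly86, and if S100a8 and S100a9 together made up under 5% of its UMIs (a unique molecular identifier, UMI, marks 1 captured RNA molecule). These limits gave 309 members, 6.19% of the 4992 cells of the sort, out of 8969 cells in the 4 libraries of the series. Of them 152 came from the control library (7.90% of 1924 cells, exact binomial 95% interval 6.73 to 9.20) and 157 from the Tet2 KO library (5.12% of 3068 cells, 4.36 to 5.96). Since the members were chosen by Mpo, Cebpe, Ly86, S100a8 and S100a9, the levels of these genes in members are a description and not a finding.

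The Tet2 KO mouse carried Mx1-Cre and Tet2 fl/fl, and the control mouse, called WT in the study, was a Tet2 fl/fl animal without Cre, from littermate controls. Mx1-Cre is switched on by interferon, so deletion needs an injected inducer and is not confined to blood cells, and this inducer, pI:pC, a double-stranded RNA analog that itself evokes interferon, was injected 4 times at 12.5 ug/g, as recorded for all 4 samples. Per the study's methods the mice were 8 to 12 weeks old. The other 2 libraries held GMP (granulocyte-monocyte progenitors, sorted as Lin- cKit+ Sca1- CD34+ CD16/32+) of the same mice, 1 mouse per genotype. The study's sample list exchanges the cell numbers of the control Lin-/CD11b+ library and the Tet2 KO GMP library relative to the deposited table of cells, which was used here. In the deposited data the control Lin-/CD11b+ library holds 188 B cells, and the protease gene Ctse stood at 38.4 CPM in it (UMIs of a gene per 1000000 UMIs, summed over cells) and at 3.12 CPM in the Tet2 KO Lin-/CD11b+ library, with 63.5 and 1.52 CPM in control and Tet2 KO cells of the GMP sort that meet the same limits. With 1 library per group no test was made and no p-value is given. Every interval is a 95% interval of counting error only, and genotype, mouse and library cannot be told apart.

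Granulocytic progenitors, or promyelocyte-stage cells, are the stage at which a myeloid progenitor fills its azurophil (primary) granules: myeloperoxidase (Mpo), which makes hypochlorous acid, is packed together with the serine proteases neutrophil elastase (Elane), proteinase 3 (Prtn3) and cathepsin G (Ctsg). The transcription factor C/EBP epsilon (Cebpe) drives the step that follows, when secondary granules with lactoferrin (Ltf), Camp and Lcn2 are made and the alarmins S100a8 and S100a9 accumulate. Ly86 belongs to the monocytic branch that leaves the same progenitors. TET2 oxidises 5-methylcytosine in DNA, and its loss is a frequent event in clonal haematopoiesis and myeloid leukaemia.

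The members held 2362402 UMIs in control and 2108036 in Tet2 KO, with a median of 15224.5 and 12958 UMIs and of 2966 and 2709 genes per cell. Over the whole libraries the totals were 22681380 and 34024599 UMIs in this sort. The 4 libraries had 8932 distinct barcodes for 8969 cells, 7 of them shared between the 2 Lin-/CD11b+ libraries, and 5 members had a barcode that also occurs in another library. Xist was present in all 4 libraries, and Tet2 itself, read by 3' tags that need not cover the deleted part, stood at 11.9 CPM in control and 17.1 CPM in Tet2 KO members, which does not check the deletion. No doublet caller was run, and possible doublets were kept.

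The limits were crossed mainly by Cebpe. In the control library 711 cells had enough Mpo, 177 of these also enough Cebpe, 155 also passed Ly86 and 152 the alarmin limit. In the Tet2 KO library these numbers were 1120, 198, 173 and 157. Just inside the Cebpe limit, at 2 UMIs, lay 53 and 64 members, and just outside it, at 1 UMI, 53 and 100 cells, with Elane at 10512 and 9792 CPM inside and 8102 and 7782 CPM outside. At the Mpo limit lay 0 and 3 members with 10 to 12 UMIs, and 0 and 1 cells with 7 to 9 UMIs. At the Ly86 limit 11 and 15 members had 1 UMI, and 5 and 5 cells with 2 UMIs stayed out. For the alarmins, 0 and 1 members lay between 4% and 5% of UMIs, and 1 and 2 cells between 5% and 6%. The rule counts raw UMIs, so the shares depend on depth: with every cell thinned to 5000 UMIs they were 2.70% and 2.05%, and with 1 UMI of Cebpe enough they were 10.7% and 8.38%.

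The members carried the markers of the label. Elane was found in 152 of 152 control members and 156 of 157 Tet2 KO members, and Gstm1, a glutathione transferase marking granulocytic progenitors, in 146 and 141. Of the 10 granulocytic progenitor markers all were measured, and Prtn3, Ctsg, Ms4a3 and Prss57 were among them at levels given below. The neutrophil granule gene Camp was found in a share of cells near the share that free RNA gives. Camp had a UMI in 32.9% and 27.4% of control and Tet2 KO members, against 34.6% and 20.4% of the 188 and 230 B cells (Cd79a of at least 3 UMIs, median 14256.5 and 11853.5 UMIs) of the same libraries, which should lack it. With each cell thinned to 5000 UMIs the Camp shares were 11.2% and 10.8% in members and 13.8% and 11.7% in B cells, so Camp is read as background here. For Lcn2 the shares were 16.4% and 12.7% of thinned members and 7.98% and 8.696% of thinned B cells. S100a9 had a UMI in a like share of both, with 34.2% and 37.6% of thinned members and 34.6% and 33.9% of thinned B cells. S100a8 had a UMI in a larger share of thinned members than of thinned B cells (65.1% and 66.2% of members, 35.6% and 42.6% of B cells), as did Fcnb, a ficolin gene (12.5% and 16.6% against 1.06% and 3.48%). By level, however, the B cells lay above or near the members for both alarmins, Lcn2 and Camp. S100a8 stood at 2375 and 2084 CPM in B cells against 831 and 2219.6 CPM in members, and S100a9 at 1581 and 1362 against 218 and 326 CPM. Lcn2 stood at 205 and 109 against 39.4 and 33.7 CPM, and Camp at 738 and 351 against 27.9 and 26.6 CPM. Free RNA of neutrophils therefore cannot be told apart from a part of these signals. The B cell sums are not a background level, however. For Camp they lay far above the members, although like shares of both had a UMI. How the UMIs were spread over the B cells was not examined. Fcnb, by contrast, stood at 7.902 and 21.4 CPM in B cells against 42.8 and 81.1 CPM in members. Of other lineages, the erythroid markers, 9 of 10 of which are in the counts, summed to 26.2 and 17.1 CPM (5 and 6 of them at 0). The 8 macrophage markers summed to 37.7 and 25.6 CPM (5 and 6 at 0) and the 6 megakaryocyte markers to 13.1 and 16.6 CPM. The 8 stem cell markers summed to 119 and 142 CPM and the 10 dendritic markers to 240.0 and 226 CPM. The 10 B and plasma cell markers summed to 712 and 479 CPM and the 12 neutrophil markers to 1220.4 and 2689.7 CPM. The T and NK markers summed to 1559 and 1333 CPM, nearly all of it Nkg7, with 7 and 3 of 11 at 0.

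The first question was where these cells stand among their neighbours in the marrow. They were set against 382 control and 722 Tet2 KO cells of the GMP sort that meet the same limits (30.4% and 26.6% of the sort), against monocytic progenitors of the same libraries (Mpo of at least 10, Ly86 of at least 2, Cebpe of at most 1, alarmins under 5%; 301 and 350 cells), and against neutrophils (alarmins of 5% or more, Ly86 of at most 1; 137 and 148 cells). A gene was counted as different if CPM + 1 differed 1.5-fold or more in the same direction in both genotypes. On that scale 0.633% of 9480 genes were higher and 0.591% lower than in the GMP-sort cells, 4.49% higher and 8.23% lower of 8871 genes against monocytic progenitors, and 44.9% higher and 10.1% lower of 7098 genes against neutrophils. The fewest genes differed from the GMP-sort cells, but those were picked by the same limits. Monocytic progenitors were picked by opposing limits of Ly86 and Cebpe, and neutrophils by an opposing limit of the alarmins. The order of these counts was thus set in part by the choice of cells and is no finding.

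Against the GMP-sort cells the 13 measured azurophil genes were alike: 0 were 1.5-fold different in both genotypes, with a median log2 ratio of 0.046 in control and -0.20 in Tet2 KO. The genes that stood highest above GMP-sort cells were transcripts abundant in other cells of the same libraries. The immunoglobulin genes Igkc (581 and 342 CPM in control and Tet2 KO members, 0.6602 and 0.179 in GMP-sort cells), Igha and Jchain led, and Igkc was at 51559.6 and 29094 CPM over the whole Lin-/CD11b+ libraries. Camp, Ngp, S100a9, S100a6 and S100a8 followed. S100a8 stood at 831 and 2219.6 CPM in members and 313 and 1363 CPM in GMP-sort cells. The 8 lowest genes (Spsb3, Gamt, Bop1, Platr17, Setd3, Ahcy, Cryl1 and Wdr46) had at most 43.05 CPM in any of these sums, and with an offset of 10 CPM 0 genes were lower.

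**Figure D1:**
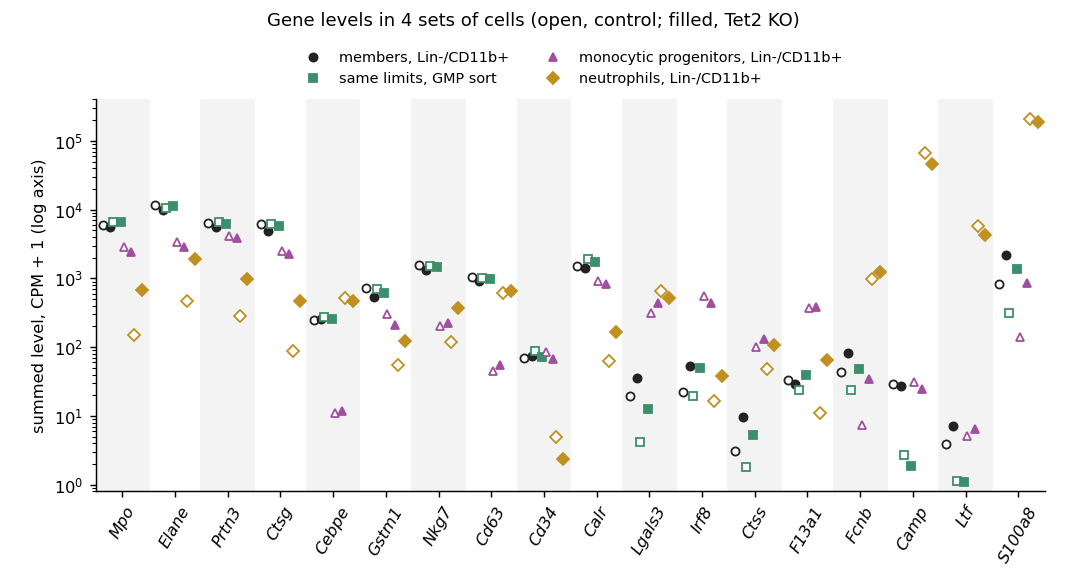
Summed levels (CPM + 1, log axis) of 18 genes in the members, in cells of the same limits in the GMP sort, in monocytic progenitors and in neutrophils; open symbols are control and filled ones Tet2 KO, 1 library each. Members and GMP-sort cells lie together for the azurophil genes, and neutrophils lie highest for Camp, Ltf and S100a8.

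The split from the monocytic progenitors was carried by named genes on both sides. Cd63, a tetraspanin of azurophil granule membranes, stood at 1036 and 903 CPM in control and Tet2 KO members and 43.5 and 54.5 CPM in monocytic progenitors. Nkg7, a granule membrane protein, stood at 1557 and 1309 CPM against 202 and 227. The serine protease Prss57 (383 and 254 against 66.3 and 45.98 CPM) and Pglyrp1, a peptidoglycan-binding antibacterial protein (461 and 334 against 21.3 and 30.3 CPM), were higher too, as were Wfdc21, Rgcc and Cpa3. Of the azurophil list 9 of 13 genes were higher and 2 lower than in monocytic progenitors in both genotypes. On the other side, galectin 3 (Lgals3) stood at 18.6 and 34.6 CPM in members and 309 and 433 CPM in monocytic progenitors, coagulation factor XIII (F13a1) at 32.2 and 28.5 against 377 and 380.4 CPM, cathepsin S (Ctss) at 2.12 and 8.54 against 99.4 and 130.4 CPM, the chemokine receptor Ccr2 at 5.503 and 10.4 against 103 and 137 CPM, and Irf8, the transcription factor of monocyte and dendritic fate, at 21.6 and 53.1 against 547 and 434 CPM. S100a4 and S100a6 were also lower. All 11 monocytic markers were lower in members, with Ly86 among them by the rule.

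Compared with neutrophils, the members gave a larger share of their UMIs to the translation and secretion machinery and a smaller one to the later granules. The 12 neutrophil markers took 477870 and 398839 CPM in control and Tet2 KO neutrophils, against 1220.4 and 2689.7 CPM in members. CPM is a share, so this by itself raises other genes in members, and 44.9% of all genes were higher. Its part in the differences below was not tested. All 83 measured ribosomal protein genes, 20 of 24 endoplasmic reticulum chaperone genes and 58 of 75 oxidative phosphorylation genes were higher in members in both genotypes. Calreticulin (Calr), a chaperone, stood at 1507 and 1435 CPM in members and 62.1 and 165 CPM in neutrophils, the cytokine Mif at 1447 and 1453 against 62.9 and 138 CPM, and Ctsg at 6178 and 4869 against 87.2 and 474 CPM. Fkbp11, Pdcd4, C1qbp and Phgdh completed the 8 highest with Mpo. All 21 measured secondary and tertiary granule genes were lower: Camp, a cathelicidin, stood at 27.9 and 26.6 CPM against 67231 and 46839 CPM, lactoferrin (Ltf) at 2.96 and 6.17 against 5789.9 and 4245 CPM, and the siderophore-binding protein Lcn2 at 39.4 and 33.7 against 14072 and 9913 CPM. Cebpe itself, at 244 and 254 CPM in members by the rule, stood at 527 and 461 CPM in neutrophils.

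The second question was how control and Tet2 KO members differ. Tet2 KO members had lower sums of the azurophil proteases Elane, Prtn3, Ctsg and Prss57 and higher levels of MHC class I and interferon-stimulated genes, while most regulators of granulocytic fate were close. Of 8100 genes with at least 20 UMIs in the 2 sums, 644 (7.95%) were 1.5-fold or more higher in Tet2 KO members and 402 (4.96%) lower, with a median log2 ratio of 0.01 over all of them. In the GMP-sort cells, with more UMIs, these were 263 (2.53%) and 332 (3.19%) of 10414 genes. The counting interval of the ratio lay above 0 for 5.99% and below 0 for 5.7% of the 8100 genes, and for 16.2% and 22.1% of the 557 genes with at least 1000 UMIs, since more UMIs narrow it. Both counts of 1.5-fold differences include genes with few UMIs, and with an offset of 10 CPM in place of 1 they were 114 and 65 in members.

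Azurophil granule genes differed by small amounts, most of them toward lower values in Tet2 KO members. Of 13 measured genes of the list (Lyz1 and Bpi had 0 UMIs), 10 had an interval of the ratio below 0 and 1 above it, but only Prss57 was 1.5-fold lower and Lyz2 1.5-fold higher, and the median log2 ratio was -0.24. The share with a 1.5-fold difference is near that of all genes, and the count of intervals rests largely on genes with many UMIs. Of genes with at least 1000 UMIs 22.1% had an interval below 0, against 5.7% of all genes. The list summed to 37586 CPM in control and 32255 CPM in Tet2 KO members. In GMP-sort cells it summed to 37335 and 36838 CPM, with a median of -0.025 and no gene 1.5-fold different.

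The serine proteases come first. Elane per cell had its lowest, median and highest value at 103, 11594 and 32799.7 CPM in control and 0, 9212 and 24752 CPM in Tet2 KO. Summed, Elane stood at 11495 CPM in control and 9733 CPM in Tet2 KO members, a log2 ratio of Tet2 KO to control of -0.24 [-0.27 to -0.21], with the 95% interval in brackets here and below. Ctsg per cell ran through 871, 6077 and 12071 CPM in control and 765, 4616 and 11066 CPM in Tet2 KO, and its sums gave -0.34 [-0.38 to -0.31]. The cells of both genotypes overlap over nearly the whole range of both genes, with the medians lower in Tet2 KO. Prtn3 stood at 6471 CPM in control and 5555 CPM in Tet2 KO members (-0.22 [-0.26 to -0.19]). Prss57 stood at 383 CPM in control and 254 CPM in Tet2 KO members (-0.59 [-0.75 to -0.44]), and at 364 and 299 CPM in GMP-sort cells (-0.29). Ms4a3, a membrane protein of granulocyte-monocyte progenitors, stood at 2179.6 CPM in control and 1811 CPM in Tet2 KO members (-0.27 [-0.33 to -0.21]), Nkg7 at 1557 and 1309 CPM (-0.25 [-0.32 to -0.18]) and the cysteine protease inhibitor Cst7 at 422 and 332 CPM (-0.35 [-0.49 to -0.21]). Mpo, which the rule uses, stood at 5940.1 CPM in control and 5667 CPM in Tet2 KO members (-0.068 [-0.10 to -0.033]). Lysozyme (Lyz2), which monocytes also make, went the other way at 139 CPM in control and 257 CPM in Tet2 KO members (0.89 [0.69 to 1.09]).

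In GMP-sort cells the same ratios were smaller or on the other side of 0: 0.058 for Elane, -0.089 for Ctsg, -0.077 for Prtn3 and 0.025 for Ms4a3. The difference between the sorts was not tested. Gstm1, not in the list, stood at 731 CPM in control and 531 CPM in Tet2 KO members (-0.46 [-0.57 to -0.35]) and at 690.5 and 622 CPM in GMP-sort cells, and Pglyrp1 at 461 CPM in control and 334 CPM in Tet2 KO members (-0.46 [-0.60 to -0.33]).

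The promoters of Mpo and of the 3 serine proteases are shown because these genes define the azurophil granule and because PU.1, an ETS factor of myeloid cells, is known to act on promoters of this kind. Each line gives the 250 bases before the annotated start (RefSeq, GRCm38.p6), 5' to 3' on the strand of the gene, at chr11:87793534-87793783 (Mpo, + strand), chr10:79886062-79886311 (Elane, + strand), chr10:79879417-79879666 (Prtn3, + strand) and chr14:56102575-56102824 (Ctsg, - strand), with matches to the PU.1 core GAGGAA on either strand in capitals.
Mpo: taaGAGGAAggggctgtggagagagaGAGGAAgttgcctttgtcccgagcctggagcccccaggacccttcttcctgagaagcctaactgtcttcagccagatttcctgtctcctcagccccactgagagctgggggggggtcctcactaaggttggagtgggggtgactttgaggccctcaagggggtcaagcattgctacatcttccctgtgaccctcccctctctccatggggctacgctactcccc
Elane: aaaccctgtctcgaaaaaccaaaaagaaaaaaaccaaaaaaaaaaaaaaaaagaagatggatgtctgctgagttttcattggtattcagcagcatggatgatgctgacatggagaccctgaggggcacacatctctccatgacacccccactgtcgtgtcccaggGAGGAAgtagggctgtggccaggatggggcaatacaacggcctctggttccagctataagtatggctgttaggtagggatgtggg
Prtn3: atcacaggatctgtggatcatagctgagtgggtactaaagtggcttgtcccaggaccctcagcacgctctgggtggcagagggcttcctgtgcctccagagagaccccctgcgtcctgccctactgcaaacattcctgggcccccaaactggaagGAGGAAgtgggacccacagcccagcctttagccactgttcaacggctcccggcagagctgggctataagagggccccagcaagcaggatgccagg
Ctsg: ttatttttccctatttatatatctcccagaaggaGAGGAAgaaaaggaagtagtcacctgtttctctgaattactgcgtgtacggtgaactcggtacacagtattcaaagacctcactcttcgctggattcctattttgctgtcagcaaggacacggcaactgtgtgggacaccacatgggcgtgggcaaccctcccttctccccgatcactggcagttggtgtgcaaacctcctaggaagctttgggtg
Mpo holds 2 matches and the other genes 1 each. Over windows of 300 bases (250 before to 50 after the start) the core is found in 8 of the 13 azurophil genes with an entry, of 15 in the list (Bpi, Ctsc, Ctsg, Elane, Gusb, Mpo, Ms4a3 and Prtn3), and in 28.1% of all 32544 promoters. The C/EBP sequence TTGCNNAA is found in 3 of the 13 (Cst7, Lyz1 and Ms4a3) and in 10.8% of all promoters. A match is a stretch of letters, not a bound site.

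MHC class I genes were higher in Tet2 KO members. The heavy chains, beta-2-microglobulin (B2m), the peptide transporter (Tap1, Tap2) and the immunoproteasome subunits (Psmb8, Psmb9) together display peptides to CD8 T cells. Of 15 measured genes 14 had a ratio above 0, 10 an interval above 0 and 4 a difference of 1.5-fold or more, with a median of 0.33 against 0.01 for all genes, and 0.14 in GMP-sort cells. Among all genes 5.99% had an interval above 0 and 7.95% were 1.5-fold or more higher. For genes with at least 1000 UMIs, 16.2% had an interval above 0. Summed per cell, the list ran from 1659.8 through a lower quartile of 3668, a median of 4376 and an upper quartile of 5059.6 to 7960.4 CPM in control and from 2699.5 through a lower quartile of 4963, a median of 5622 and an upper quartile of 6603 to 9226 CPM in Tet2 KO. The ranges overlapped widely, but the upper quartile of control lay near the lower quartile of Tet2 KO. Over all cells of a set, the list summed to 4462 and 5760 CPM in control and Tet2 KO members. It summed to 5046 and 5672 CPM in monocytic progenitors and 2794 and 4306 CPM in neutrophils, so the direction is not particular to the members.

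B2m per cell had its lowest, median and highest value at 601, 2109 and 4281 CPM in control and 1118, 2753 and 5711 CPM in Tet2 KO, with sums of 2136 and 2798 CPM (0.39 [0.33 to 0.44]). GMP-sort cells gave 2136 and 2831 CPM (0.41). The classical heavy chains H2-K1 (491 and 663 CPM, 0.43 [0.32 to 0.55]) and H2-D1 (719 and 864 CPM, 0.27 [0.17 to 0.36]) showed differences of like size. The non-classical Q-region genes showed more: H2-Q7 stood at 66.03 CPM in control and 174 CPM in Tet2 KO members (1.40 [1.12 to 1.68]) and H2-Q6 at 20.7 and 60.2 CPM (1.54 [1.05 to 2.04]), but these genes are near-identical copies, so how reads fall between them is uncertain. Tap1 stood at 26.7 CPM in control and 46.5 CPM in Tet2 KO members (0.80 [0.33 to 1.28]), Tap2 at 58.8 and 55.98 CPM (-0.072 [-0.44 to 0.29]), Psmb9 at 199 and 236 CPM (0.25 [0.063 to 0.43]) and Psmb8 at 455 and 496 CPM (0.12 [0.00 to 0.25]). Tap2 was the member of the list with a ratio below 0.

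**Figure D2:**
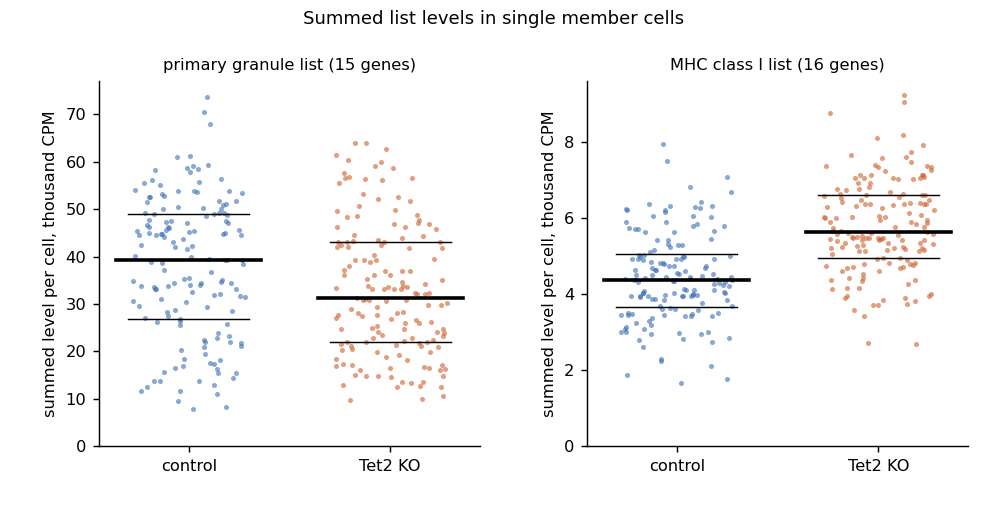
Summed level (in units of 1000 CPM) of the azurophil (primary granule) list, left, and the MHC class I list, right, in each of 152 control and 157 Tet2 KO members; the thick line is the median and thin lines are quartiles. The median of the granule list is 39321 CPM in control and 31281 CPM in Tet2 KO, and that of the MHC class I list 4376 and 5622 CPM.

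Interferon-stimulated genes leaned the same way. Of 39 genes 25 were measured, of which 12 were 1.5-fold or more higher in Tet2 KO members and 0 lower, 14 had an interval above 0, and the median was 0.58. The shares over all genes were 7.95% for 1.5-fold higher and 5.99% for an interval above 0. In GMP-sort cells 6 of 32 were higher, with a median of 0.29. The list summed to 1770.2 and 2332 CPM in control and Tet2 KO members. In the same order it summed to 2868 and 3737 CPM in monocytic progenitors and 1339 and 2294 CPM in neutrophils, so this direction too is not particular to the members. The GTPase Gbp7 stood at 13.97 CPM in control and 25.6 CPM in Tet2 KO members (0.87 [0.22 to 1.55]) and the antiviral membrane protein Ifitm3 at 184 CPM in control and 297 CPM in Tet2 KO members (0.69 [0.51 to 0.87]). Ly6e stood at 505 and 695 CPM (0.46 [0.35 to 0.57]), Trim30a at 13.1 and 27.5 CPM (1.07 [0.41 to 1.75]), Bst2, which tethers virus particles, at 129.5 and 162 CPM (0.32 [0.094 to 0.55]) and Slfn2 at 9.31 and 27.5 CPM (1.56 [0.83 to 2.34]). Isg15, a ubiquitin-like modifier, had 20 and 33 UMIs in all, and its ratio of 0.89 [0.043 to 1.77] rests on these. The intervals of these low genes are wide. Ifngr1, the ligand-binding chain of the interferon gamma receptor, stood at 259 CPM in control and 184 CPM in Tet2 KO members (-0.49 [-0.68 to -0.31]).

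Promoters with the interferon-stimulated response element GAAANNGAAA are shown for 3 of these genes, since it is the element known to bind the factor complex that type I interferon activates. The lines give 250 bases before the start (RefSeq, GRCm38.p6), 5' to 3' on the strand of the gene, at chr2:122147437-122147686 (B2m, + strand), chr3:142530086-142530335 (Gbp7, + strand) and chr7:104465194-104465443 (Trim30a, - strand, the first of 2 entries), with the element on either strand in capitals.
B2m: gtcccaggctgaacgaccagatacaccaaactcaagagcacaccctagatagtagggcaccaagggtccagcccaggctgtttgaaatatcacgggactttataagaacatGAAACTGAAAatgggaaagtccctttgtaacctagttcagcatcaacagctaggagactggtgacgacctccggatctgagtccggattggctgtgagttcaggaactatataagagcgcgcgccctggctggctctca
Gbp7: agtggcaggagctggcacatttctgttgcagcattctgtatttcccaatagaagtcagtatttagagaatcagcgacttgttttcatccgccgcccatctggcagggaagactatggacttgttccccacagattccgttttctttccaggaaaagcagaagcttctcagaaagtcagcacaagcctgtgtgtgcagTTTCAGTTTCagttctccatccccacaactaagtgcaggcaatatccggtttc
Trim30a: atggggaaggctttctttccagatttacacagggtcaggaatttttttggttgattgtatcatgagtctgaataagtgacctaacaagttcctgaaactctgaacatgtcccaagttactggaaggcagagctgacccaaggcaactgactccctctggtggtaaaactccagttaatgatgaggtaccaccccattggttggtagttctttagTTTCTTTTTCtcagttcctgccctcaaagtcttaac
The element is found in 17 of the 28 interferon-stimulated genes with an entry, in 4 of 14 MHC class I genes (B2m, Erap1, H2-T22 and H2-T23) and in 3.45% of all 32544 windows of 300 bases. The list holds genes known as interferon targets, so its share is no independent finding.

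The alarmins S100a8 and S100a9 are bounded by the rule, so their values are a description. S100a8 summed to 831 CPM in control and 2219.6 CPM in Tet2 KO members (1.42 [1.34 to 1.49]), and S100a9 to 218 and 326 CPM (0.58 [0.42 to 0.75]). Per cell, however, the median of S100a8 was 220.4 CPM in control and 197 in Tet2 KO, and the upper quartile 696 and 1279 CPM, so the sums differ through the cells of the upper range. In GMP-sort cells the sums were 313 and 1363 CPM for S100a8 (2.12) and 37.1 and 108 CPM for S100a9 (1.55), where Camp stood at 1.72 and 0.893 CPM, against 27.9 and 26.6 CPM in members. S100a11 stood at 774 CPM in control and 978 CPM in Tet2 KO members (0.34 [0.25 to 0.43]). For S100a6 (27.5 and 60.7 CPM) the 3 cells with most UMIs held 52.3% of the UMIs in control and 50% in Tet2 KO. Anxa1, an anti-inflammatory annexin, stood at 159 CPM in control and 224 CPM in Tet2 KO members (0.50 [0.30 to 0.70]), and Fcnb at 42.8 and 81.1 CPM (0.92 [0.56 to 1.29]). Of the 22 secondary and tertiary granule genes 15 were measured, with 4 higher and 1 lower by 1.5-fold, beside 7.95% and 4.96% of all genes. An interval above 0 was found for 3 of them and below 0 for 4. The median was -0.16, and the list summed to 1683 and 1485 CPM.

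**Figure D3:**
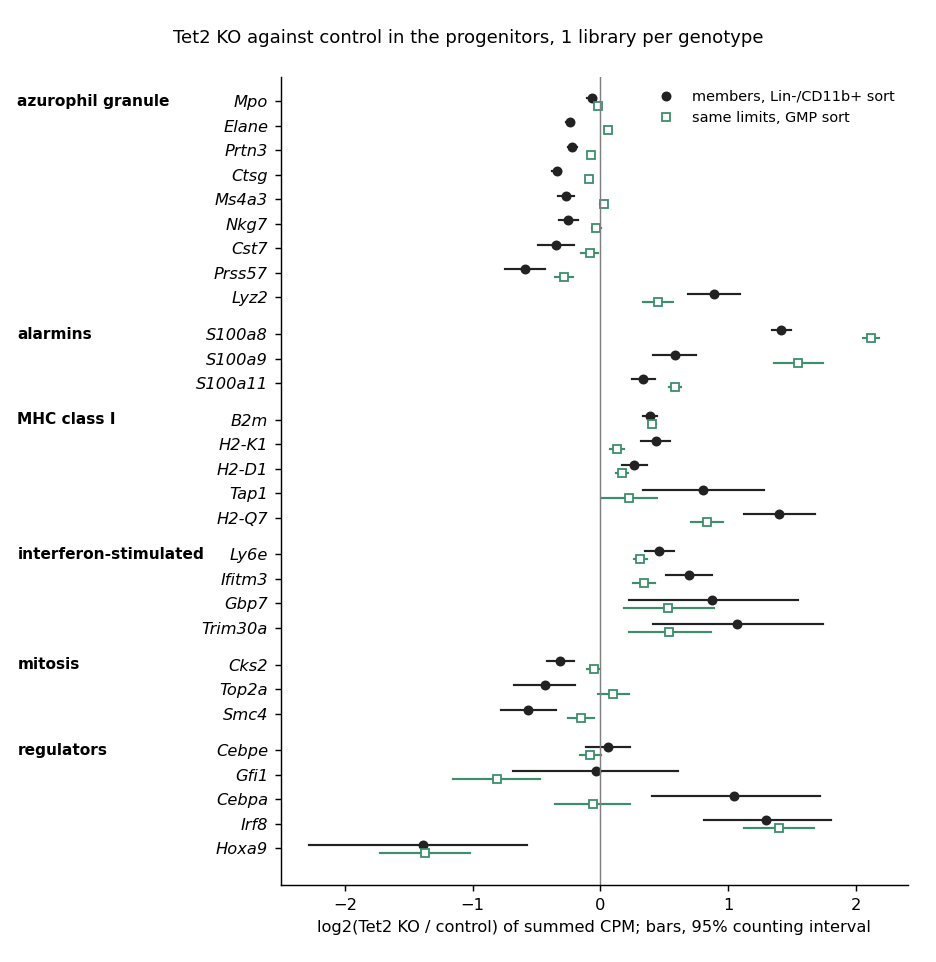
Log2 ratio of summed CPM, Tet2 KO over control, for 29 genes in the members (filled circles) and in cells of the same limits in the GMP sort (open squares), with 95% counting intervals. Members lie left of 0 for azurophil genes other than Lyz2 and right of 0 for the MHC class I, interferon-stimulated and alarmin genes shown, and Irf8 and Hoxa9 have like ratios in both sorts.

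The regulators of granulocytic fate were mostly close. Of 19 measured, 2 were 1.5-fold higher and 0 lower, with a median of 0.034. Cebpe, used by the rule, stood at 244 CPM in control and 254 CPM in Tet2 KO members (0.061 [-0.11 to 0.23]), the repressor Gfi1 at 19.5 and 18.98 CPM (-0.037 [-0.69 to 0.61]) and PU.1 (Spi1) at 205 and 197 CPM (-0.057 [-0.25 to 0.13]). Cebpa, the factor that opens myeloid commitment, stood at 13.5 CPM in control and 27.99 CPM in Tet2 KO members (1.05 [0.40 to 1.72]), with -0.061 in GMP-sort cells. Irf8 stood at 21.6 CPM in control and 53.1 CPM in Tet2 KO members (1.30 [0.81 to 1.81]), in 31 and 46 cells, and the same contrast in GMP-sort cells gave 18.5 and 48.6 CPM. The list of monocytic markers summed to 1331 and 1768 CPM, with 5 of 10 measured genes 1.5-fold or more higher in Tet2 KO members and 0 lower, beside 7.95% of all genes higher. Most of both sums is Ly6c2. In the low, middle and high alarmin tertiles described below it stood at 773, 906 and 2051 CPM in control and 678, 1164 and 2934 CPM in Tet2 KO. The part of the monocytic markers in the other differences was not tested. The homeobox genes Hoxa9 (21.2 and 8.06 CPM, -1.39 [-2.28 to -0.57]) and Hoxa7 (25.8 and 12.3 CPM, -1.07 [-1.79 to -0.38]), which act in early progenitors, were lower, with -1.37 and -1.08 in GMP-sort cells. They belong to a list of stem and early progenitor genes of which 16 were measured, with 3 higher and 2 lower and a median of 0.088, and Irf8 to 8 measured monocyte and dendritic regulators, with 1 higher and 0 lower and a median of 0.30.

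Mitotic genes lay near the background. Of 53 measured G2/M genes 0 were 1.5-fold higher and 3 lower, a share close to the 4.96% of all genes, 11 had an interval below 0 and 0 above it, and the list summed to 5382 and 4987 CPM, with a median of -0.11. An interval below 0 was found for 5.7% of all genes and 22.1% of genes with at least 1000 UMIs. Without the members carrying eosinophil or basophil genes, described below, the median was -0.054, and without shared barcodes -0.067. The condensin subunit Smc4 stood at 201 CPM in control and 136 CPM in Tet2 KO members (-0.56 [-0.78 to -0.35]), topoisomerase II alpha (Top2a) at 153 and 113 CPM (-0.44 [-0.68 to -0.20]) and Cks2 at 736 and 591 CPM (-0.32 [-0.42 to -0.21]). In GMP-sort cells the list summed to 4949 and 5235 CPM and its median was 0.059, on the other side of 0. The S phase list (44 genes) had a median of -0.022 in members.

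Lists of general cell functions had medians near 0. The median was 0.021 for 83 ribosomal protein genes, 0.01 for 75 oxidative phosphorylation genes and -0.017 for 38 proteasome genes, with 0 genes 1.5-fold different in either direction in each. For 20 glycolysis and pentose phosphate genes the median was -0.13, with 7 intervals below 0 and 0 above, among them Eno1 (400.4 and 304 CPM, -0.40 [-0.54 to -0.25]). For 24 chaperone genes it was -0.12, with 8 intervals below 0 and 1 above, among them Pdia3 (526 and 409.9 CPM, -0.36 [-0.49 to -0.23]). Beside these counts, 5.7% of all genes and 22.1% of genes with at least 1000 UMIs had an interval below 0. Of 7 NADPH oxidase genes 1 was 1.5-fold higher and 0 lower, beside 7.95% and 4.96% of all genes, with a median of -0.14. In this list 3 intervals lay below 0 and 0 above, among them Ncf1 (71.1 and 48.9 CPM, -0.54 [-0.91 to -0.18]) and Ncf4 (122 and 94.4 CPM, -0.37 [-0.64 to -0.11]). Of 7 measured MHC class II genes 3 were 1.5-fold lower and 1 higher, beside 4.96% of all genes lower and 7.95% higher. An interval below 0 was found for 2 of them and above 0 for 1. The median was -0.55 in members and 0.16 in GMP-sort cells. The list summed to 227 and 184 CPM, but 85.7% of the Cd74 UMIs in control were held by 3 cells. H2-Ab1 and Cd74 changed direction with members found in thinned cells, as given below.

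Genes with the largest ratios were chosen by rank among genes with at least 50 UMIs in 1 sum, on CPM + 10 and with genes held by few cells left out. Among the 12 highest in Tet2 KO members were Rpgrip1, S100a8, Apoe, H2-Q7, H2-Q6, Iglc1, Irf8, Slfn2, S100a6, Hist1h1d and Lyz2. Rpgrip1 stood at 1.27 CPM in control and 30.8 CPM in Tet2 KO members (4.60 [2.99 to 6.92]), in 2 and 42 cells, and at 0.792 and 30.3 CPM in GMP-sort cells, 1.74 and 49.1 CPM in monocytic progenitors and 0 and 19.7 CPM in neutrophils. Apoe, a lipid carrier, stood at 49.9 CPM in control and 142 CPM in Tet2 KO members (1.51 [1.19 to 1.83]) and at 61.01 and 164 CPM in GMP-sort cells.

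Among the 12 lowest were Ctse, Gm47283, Myl10, Dmkn, Trem3, Hoxa9, Tslp, Xpc, Igkc, Zfand1 and Oser1. Cathepsin E (Ctse), an aspartic protease, stood at 49.9 CPM in control and 2.85 CPM in Tet2 KO members (-4.13 [-5.61 to -2.97]), in 76 and 5 cells, and at 63.5 and 1.52 CPM in GMP-sort cells, 26.3 and 1.48 CPM in monocytic progenitors and 38.5 and 2.04 CPM in neutrophils. Gm47283 stood at 23.7 CPM in control and 2.37 CPM in Tet2 KO members (-3.32 [-5.00 to -2.01]). Rpgrip1 and Ctse thus had the same direction in all 4 sets of cells compared here. Trem3, a receptor of the TREM family, stood at 218 CPM in control and 121 CPM in Tet2 KO members (-0.85 [-1.07 to -0.63]), and the DNA repair gene Xpc at 109 and 60.2 CPM (-0.86 [-1.18 to -0.55]). Tslp, a cytokine, stood at 45.3 and 22.3 CPM (-1.02 [-1.55 to -0.51]), with 0.24 in GMP-sort cells. Igkc and Iglc1 are B-lineage transcripts, carried by B cells and plasma cells of the same libraries.

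The third question was how members vary among themselves. Within each library they were cut into 3 tertiles by the share of S100a8 and S100a9 in their UMIs, at most 0.0192% and 0.0161% in the low tertile of control and Tet2 KO, and from 0.0482% and 0.0729% in the high one, up to 3.43% and 4.91%. The tertiles held 51, 51 and 50 control cells and 53, 52 and 52 Tet2 KO cells, and are ranges, not types. In both genotypes the low tertile held more RNA of early progenitors and the high one more of the granule proteases.

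Cd34, a surface antigen of stem and progenitor cells, stood at 109, 79.3 and 7.21 CPM in the low, middle and high tertile of control and at 108, 91.1 and 15.3 CPM in Tet2 KO. Sox4, a transcription factor of early progenitors, stood at 73.98, 41.97 and 14.4 CPM and 57.1, 69.7 and 22.98 CPM. For both genes the high tertile lay below the others in both genotypes. Elane stood at 8145, 10609 and 16507 CPM in control and 6749.9, 7895 and 15152 CPM in Tet2 KO, a log2 ratio of high to low of 1.02 and 1.17. For Ctsg this ratio was 0.85 and 0.93, for Ms4a3 0.77 and 0.89, and for Nkg7 1.06 and 1.02. Fcnb stood at 2.47, 16.3 and 123 CPM and 2.66, 9.96 and 248 CPM. Wfdc21 and Ly6c2 ran the same way, with 3.08 and 4.39, and 1.41 and 2.11. The chaperone Calr (-0.60 and -0.48), the nucleolar protein Npm1 (-0.47 and -0.72) and Myc (-0.69 and -1.36) ran opposite. Cebpe (0.19 and 0.047) and the proliferation marker Mki67 (-0.079 and -0.036) differed little.

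**Figure D4:**
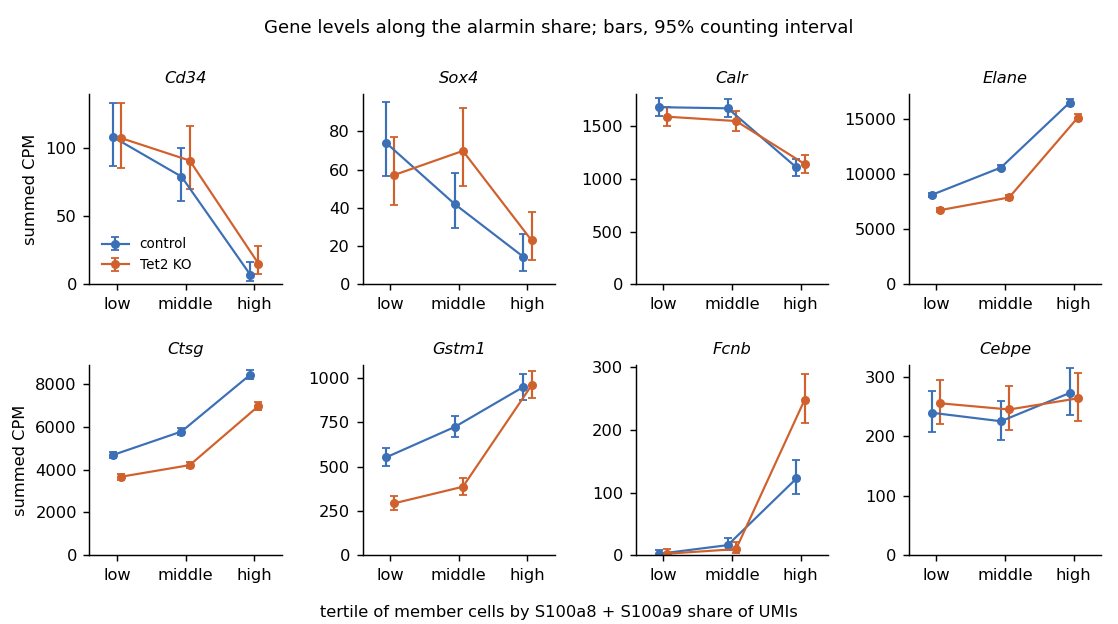
Summed CPM of 8 genes in the tertiles of members by alarmin share, control and Tet2 KO, with 95% Poisson intervals. Cd34, Sox4 and Calr are lowest and Elane, Ctsg, Gstm1 and Fcnb highest in the high tertile of both genotypes, while Cebpe differs little.

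The genotypes can be set side by side in these tertiles, but only by rank. The tertiles were cut in each library apart, so the same tertile need not hold like cells in both. In the high tertile S100a8 stood at 2472 CPM in control and 6854 CPM in Tet2 KO. The azurophil list was lower in Tet2 KO in each of them, at 28975, 34865 and 51017 CPM in control and 24723, 27928 and 45598 CPM in Tet2 KO. The MHC class I list was higher in each, at 4974, 4362 and 3986 CPM and 5917, 5768 and 5572 CPM. Gstm1 stood at 552, 724 and 950.0 CPM in control and 294, 387 and 959 CPM in Tet2 KO, lower in Tet2 KO in the low and middle tertile and near equal in the high one. Prss57 was lower in Tet2 KO in each tertile, least so in the high one, at 293, 391 and 477 CPM and 139.5, 238 and 403 CPM. Lyz2 ran in opposite directions, at 176, 119 and 119.6 CPM in control and 146, 246 and 397 CPM in Tet2 KO. The order was far weaker with tertiles by Ngp, Camp, Ltf and Lcn2: the ratio of high to low was -0.061 and -0.37 for Cd34 and 0.042 and 0.13 for Ctsg. The genes of this second cut stood low in members, with Ngp at 29.6 and 25.1 CPM and Camp at 27.9 and 26.6 CPM. Camp is read as background above, so this cut cannot decide whether the order rests on the genes chosen. The first cut has a like limit, since S100a9 had a UMI in a like share of thinned members and thinned B cells. The part of free RNA in its split of low from middle tertile was not tested.

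A few members also carried genes of eosinophils or basophils, lineages with their own granule proteins. With a limit of 10 UMIs summed over 3 eosinophil genes (Prg2, Prg3 and Epx) or over 4 basophil and mast cell genes (Mcpt8, Prss34, Fcer1a and Cpa3), genes and limit chosen after the values were seen, these were 8 of 152 control members (5.26%, interval 2.30 to 10.1) and 17 of 157 Tet2 KO members (10.8%, 6.44 to 16.8). Their Elane level was 3197 CPM against 11974 CPM in the other control members, and 5118 against 10258 CPM in Tet2 KO, and Cebpe stood at 372 against 236 CPM and at 381 against 239.9 CPM. Prg2, major basic protein, had UMIs in 8 and 11 members, with up to 30 UMIs in a control cell and 666 in a Tet2 KO cell. B cells carry Prg2 themselves: 69.1% and 59.6% of them had a UMI, at 332 and 541 CPM, against 5.26% and 7.01% of members, so low counts of Prg2 in a member cannot be told apart from free RNA. Mcpt8, a basophil protease, was found in 47.4% of control members and 41.4% of Tet2 KO members, against 7.45% and 9.13% of B cells (25.7% and 22.3% against 4.26% and 3.91% with cells thinned to 5000 UMIs). Over all members the basophil and mast cell markers summed to 144 and 350.1 CPM and the eosinophil markers to 48.3 and 712 CPM, and the 3 cells with most Prg2 held 83.8% of its UMIs in Tet2 KO. Without the 8 and 17 cells the median log2 ratio of the azurophil list was -0.23, that of the interferon-stimulated list 0.57 and that of the MHC class I list 0.35.

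**Figure D5:**
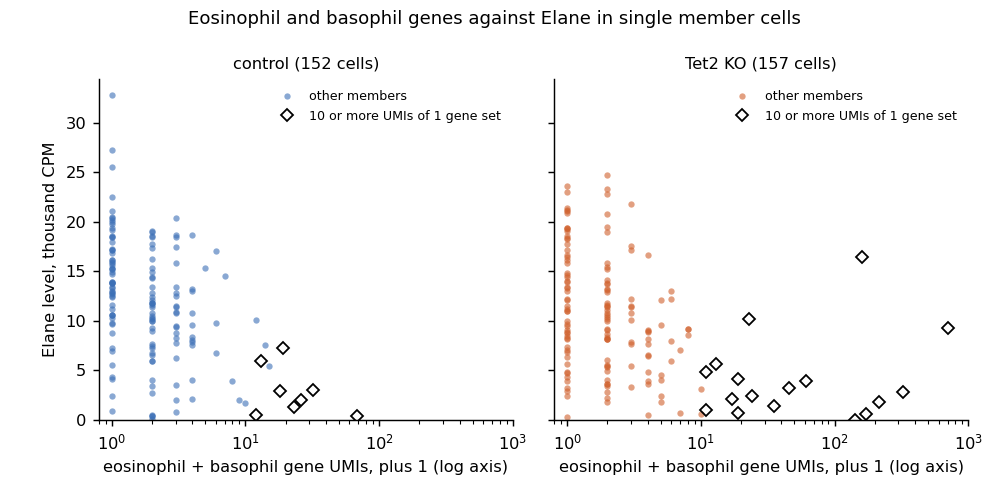
Elane level (in units of 1000 CPM) of each member against its UMIs of the 3 eosinophil and 4 basophil genes added together, plus 1 (log axis), control left and Tet2 KO right; black diamonds are the 8 and 17 members with 10 or more UMIs of 1 of the gene sets. The diamonds lie mostly low for Elane, with a median of 31.5 Elane UMIs in control and 32 in Tet2 KO, against 182.5 and 141.5 in the other members.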

How the data were processed

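The authors deposited raw UMI counts per gene and cell, made with Cell Ranger 3.1.0 on mm10 and handled in Seurat per the submitters' processing notes, together with a table of cells that gives each cell's library. Per the methods, cells with fewer than 200 genes, fewer than 5000 UMIs, or a mitochondrial share from 5% upwards were removed. The deposited counts hold 18695 genes, the lowest cell has 5003 UMIs, and cells above 5% mitochondrial UMIs are among them. The labels name kit v2 and the design text v3.1.

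Members were found with Python 3.11.15 (pandas 2.3.3, numpy 2.4.6, scipy 1.17.1, matplotlib 3.10.9). Counts were summed over the cells of a group and scaled to CPM. Genes with at least 20 UMIs in the 2 sums were compared, and a difference of 1.5-fold in CPM + 1 was counted. Intervals are exact Poisson, exact binomial, or conditional binomial for a ratio, at 95%, and cover counting error only. Ratios printed for a gene carry no offset, and a list is described by its median of log2 ratios of CPM + 1. The 24 gene lists, 12 marker lists and the members were chosen with earlier results of these data known. Genes named by rank were the 12 highest and 12 lowest by the ratio of CPM + 10, taken over genes that reach 50 UMIs in 1 sum, leaving out those with over 50% of UMIs in 3 cells, and 8 each way against other cells. Thinning drew 5000 UMIs per cell. The scripts were tested on simulated counts. TMM factors came from edgeR 4.0.16 in R 4.3.3. No count test was run, since each group is 1 library. Promoter sequences are those of RefSeq on GRCm38.p6. No entry was matched for Prss57, Cebpe, Ifi27l2a and Ly6e. Some genes that the rank rule selects are not reported here.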

Additional observations from a re-analysis of the deposited data

How the results depend on the processing

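No paired analysis was possible because each genotype and sort has 1 library and no result comes from a test, and no library could be left out. The members' share was 2.70% in control and 2.05% in Tet2 KO with cells thinned to 5000 UMIs, 10.7% and 8.38% with 1 UMI of Cebpe and 5.15% and 3.03% with 3, so control stayed above Tet2 KO at each limit. Genes 1.5-fold higher and lower numbered 1579 and 1114 without a filter and 114 and 65 with an offset of 10 CPM, and 263 were higher in GMP-sort cells. TMM scaling gave 635 and 422. Of list medians, the offset of 10 gave 0.91 for alarmins, 0.36 for interferon-stimulated, 0.27 for MHC class I and -0.25 for MHC class II genes. GMP-sort cells gave 0.88, 0.29, 0.14 and 0.16 for these, -0.025 for azurophil and 0.059 for G2/M genes. Without the 5% of members with most UMIs azurophil genes gave -0.26 and alarmins 0.80. Without eosinophil- or basophil-gene members alarmins gave 0.90 and G2/M -0.054, and without shared barcodes G2/M gave -0.067. Against GMP-sort cells, 146 genes were lower with thinned cells, and 17 were higher and 0 lower with the offset of 10. With tertiles by Ngp, Camp, Ltf and Lcn2 the ratio of high to low in control and Tet2 KO was -0.061 and -0.37 for Cd34, 0.21 and -0.051 for Gstm1, and 0.042 and 0.13 for Ctsg. Of 73 single genes, 63 kept their direction in GMP-sort cells, with Tslp 0.24, Elane 0.058, Ms4a3 0.025, Cebpa -0.061, Top2a 0.10, Ccnb1 0.034, H2-Ab1 0.064, Cd74 0.33 and Wfdc21 0.083 among those that did not. With members found in thinned cells (52 and 63), 69 of 73 kept it, and Mpo gave 0.051, Isg15 -0.30, H2-Ab1 1.94 and Cd74 3.08. The cause of these changes was not tested. Under the other alternatives, namely TMM, offset, filter, mean over cells, Cebpe of at least 3, and members left out by UMIs, mitochondrial share, eosinophil or basophil genes or shared barcodes, 74 of 74 kept their direction. At this depth genes with few UMIs have wide intervals.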

Other observations

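Further groups of genes, compared between control and Tet2 KO members in the same way, gave the following values, beside 7.95% of all genes higher and 4.96% lower. Of 23 measured lysosome genes 2 were 1.5-fold higher and 0 lower, with a median log2 ratio of 0.025. Of 24 glutathione and antioxidant genes 1 was higher and 1 lower (-0.032), with glutathione reductase (Gsr) at 270.5 CPM in control and 206 CPM in Tet2 KO members and the microsomal transferase Mgst1 at 76.2 and 108 CPM. Of 16 immediate early genes 2 were higher and 0 lower, with a median of 0.24 in members and -0.35 in GMP-sort cells. Of 21 genes of DNA methylation and clonal haematopoiesis 1 was higher and 0 lower (0.27). Of 16 cytokine and growth factor receptors 5 were higher and 0 lower (0.082), among them Cxcr4, the receptor that holds progenitors in marrow, at 17.4 CPM in control and 37.00 CPM in Tet2 KO members (1.09 [0.53 to 1.67]). Of 9 measured inflammatory mediators 2 were higher and 0 lower (-0.22). The 13 mitochondrially encoded genes had a median of 0.00.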
